A study of Mus musculus with 8 samples.

Results

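Complex I, the NADH:ubiquinone oxidoreductase of the mitochondrial inner membrane, takes electrons from NADH, passes them to ubiquinone and pumps protons out of the matrix. In β-cells the proton gradient made by complex I and by the later complexes drives the ATP synthesis that couples glucose metabolism to insulin release, and uncoupling protein 2 (UCP2), a carrier of the same membrane, is named for a proposed lowering of that gradient, a role that is debated. The enzyme is L-shaped. Its matrix arm holds the flavin, the iron-sulphur clusters and the ubiquinone site, its membrane arm holds the proton pumps, and a ring of accessory subunits surrounds both arms. Assembly factors, most of them named Ndufaf, help to build the complex and are not part of the finished enzyme.

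The members described here are the genes on the array whose symbol starts with Nduf, with pseudogenes and opposite-strand transcripts left out. Of 26894 genes with a symbol on the array, 45 members were analysed, carried by 71 probes, and they fell into 37 subunits and 8 Ndufaf assembly factors. Each gene is given by its probe with the highest mean over the 8 normalized columns of the deposited table. The choice used the level only, not the difference between genotypes. The dimmer of the *Ndufa13* probes is described in the deposited table as another gene, and is counted here under its listed symbol. All 45 members were measured, that is, well above background, on 4 of 4 arrays of each genotype. The subunits were sorted into 6 nuclear core subunits, 9 accessory subunits of the matrix arm, 9 of the proximal membrane arm, 10 of the distal membrane arm, the acyl carrier protein Ndufab1, and Ndufa4 with its relative Ndufa4l2, which keep their Nduf names although Ndufa4 is now placed with complex IV.

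RNA came from isolated, handpicked islets of βUCP2Tg mice (n = 4 samples) and of wild-type littermates (WT, n = 4 samples), and each sample was hybridised to 1 one-colour Agilent array. The βUCP2Tg mice carry a mouse *Ucp2* cDNA behind the rat *Ins2* promoter, with a rabbit β-globin intron and a polyadenylation sequence, so the transgene is directed to β-cells while the islets also hold other endocrine, vascular and immune cells. All mice were males on a C57BL6/J background, the islets were taken at 8 to 12 weeks of age, and islets of both genotypes were incubated for 8 h in RPMI medium with 200 mg/dL (11.1 mmol/L) glucose and serum. Whether a sample pools islets of several mice was not given in the sources used here, so p-values measure only the spread between these samples. Values are log2 signals relative to the 75th percentile of the same array, and a difference is βUCP2Tg minus WT on that scale. Signals of different probes depend on each probe's own binding and were not compared with each other.

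The arrays carried their labels in the targeted gene: the *Ucp2* probe A_51_P297105 had a mean signal of 7.38 ± 0.31 (SD, n = 4) in βUCP2Tg and 1.15 ± 0.23 (SD, n = 4) in WT islets. A second *Ucp2* probe, A_52_P90265, differed by 0.44 (95% interval 0.16 to 0.71), also with separated groups. All 10 islet endocrine markers were measured. Acinar markers, the genes of the enzyme-secreting exocrine cells that surround islets, were also present, with a mean signal over 19 markers from -1.33 to 2.89 on the βUCP2Tg arrays and from -0.84 to 3.40 on the WT arrays. The defining acinar factor *Ptf1a* was measured on no array. The mean over 19 hypoxia response genes was 1.67, 1.61, 1.66 and 3.02 in βUCP2Tg replicates 1 to 4 and 2.54, 3.41, 3.41 and 3.53 in WT replicates 1 to 4, so βUCP2Tg replicate 4 and WT replicate 1 each lay away from the other arrays of their genotype. All arrays shared 1 slide, with WT in one row and βUCP2Tg in the other, so slide position and genotype cannot be told apart.

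The first question was whether complex I transcripts differ between islets with and without the transgene. None of the 37 subunits and none of the 8 assembly factors was called by limma, with a call set at a Benjamini-Hochberg adjusted p under 0.05 over 35363 probes and a fold change over 1.5. Over all probes tested, 0.41% were called, that is 145 probes, a count that ranged from 8 (without βUCP2Tg replicate 1, 2 or 3) to 3759 (without WT replicate 1) with 1 array left out, and was 1467 without βUCP2Tg replicate 4 and 15 to 25 without WT replicate 2, 3 or 4. At an unadjusted limma p under 0.05, 2 members were higher in βUCP2Tg islets (*Ndufa3* and *Ndufaf3*), where 9.99% of all probes were, and 3 were lower (*Ndufc2*, *Ndufaf6* and *Ndufa4l2*), where 15.2% of all probes were. The lowest adjusted p of a member was 0.0755, for *Ndufc2*. Because islets are a mixture, fewer cells of a type and less RNA per cell cannot be told apart in any of these values.

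For 35 of the 37 subunits (94.6%) the whole 95% interval of the limma fit lay within a 1.5-fold change in either direction, and for 21 of 37 (56.8%) it lay within 1.25-fold. Over all probes tested these shares were 49.7% and 13.5%. The exceptions at 1.5-fold were *Ndufc2* and *Ndufa4l2*. Among the assembly factors 7 of 8 intervals lay within 1.5-fold, the exception being *Ndufaf3*. The median SD within a genotype was 0.10 (βUCP2Tg) and 0.15 (WT) over the subunits and 0.17 and 0.24 over all probes tested, which include many dimmer probes. The median difference was 0.02 over the subunits, with 23 above and 14 below 0, 0.16 over the assembly factors, with 6 above and 2 below, and -0.02 over all probes. With 1 array left out at a time, the subunit median ranged from -0.031 (without WT replicate 3) to 0.062 (without WT replicate 4) and the assembly factor median from 0.084 (without WT replicate 2) to 0.26 (without WT replicate 1). After quantile normalization of all arrays the subunit median was 0.10 and the assembly factor median 0.16.

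**Figure D1:**
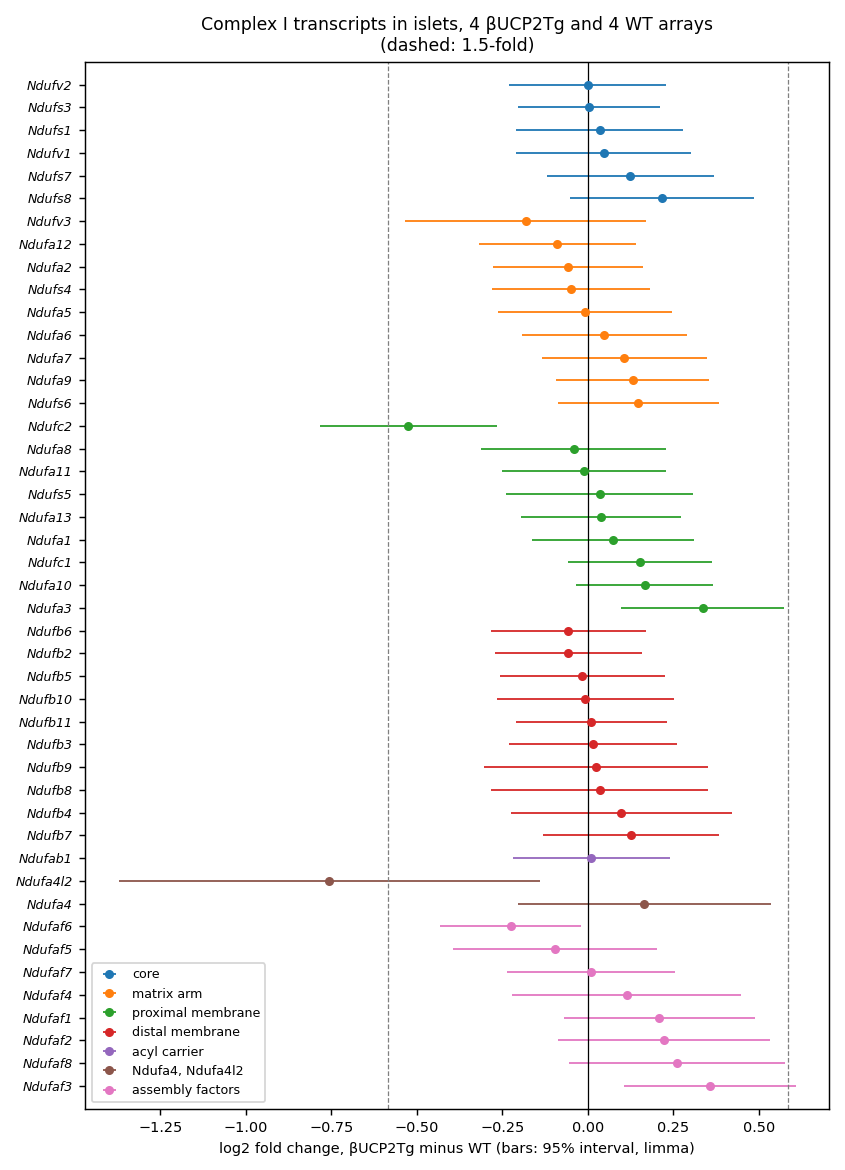
Difference between βUCP2Tg and WT islets for the 45 complex I members on the log2 scale (x axis), with points for the limma estimate and bars for its 95% interval (n = 4 arrays per genotype), coloured by place in the complex. Most points lie close to 0 and 42 of 45 intervals stay between the dashed lines at 1.5-fold, with *Ndufc2*, *Ndufa4l2* and *Ndufaf3* crossing a line.

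The 6 nuclear core subunits, which carry the electrons, differed by at most 0.22 between genotypes, and all had overlapping groups. *Ndufv1*, the subunit that binds NADH and the flavin, differed by 0.05 ± 0.11 (SE), and its iron-sulphur partner *Ndufv2* by -0.00064 ± 0.10 (SE). *Ndufs1*, which holds further iron-sulphur clusters, differed by 0.03 ± 0.11 (SE), and *Ndufs3*, a structural subunit of the ubiquinone-reducing module, by 0.0024 ± 0.09 (SE). *Ndufs7* and *Ndufs8*, which carry the last clusters before ubiquinone, differed by 0.12 ± 0.11 (SE) and 0.22 ± 0.12 (SE). The lowest adjusted limma p of these 6 was 0.279, for *Ndufs8*. In *Ndufs8* the 4 βUCP2Tg signals were 3.80, 3.82, 3.82 and 3.67 and the 4 WT signals 3.71, 3.42, 3.36 and 3.76, so WT replicates 1 and 4 overlapped the βUCP2Tg range.

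The accessory subunits of the membrane arm held the largest difference among the genes of the core, matrix arm and membrane arm groups. *Ndufc2*, a membrane subunit at the junction of the arms that is needed for assembly, had signals of 5.26, 5.30, 5.38 and 5.63 in βUCP2Tg replicates 1 to 4 and of 5.79, 5.87, 5.91 and 6.08 in WT replicates 1 to 4. All 4 βUCP2Tg arrays were lower than all 4 WT arrays, with replicate 4 the nearest to the WT range. The difference was -0.52 ± 0.11 (SE; 95% interval -0.78 to -0.26), with an unadjusted limma p of 0.00153 and an adjusted p of 0.0755. The exact two-sided permutation p was 0.0286, the smallest that 4 against 4 arrays allow. Without βUCP2Tg replicate 4 it was -0.60 ± 0.10 (SE), with an adjusted limma p of 0.0331, and *Ndufc2* was then called. In that fit 1467 probes were called against 145 with all arrays. *Ndufc2* has 1 probe on the array.

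*Ndufa3*, a small membrane-spanning accessory subunit, lay in the other direction. Its signals were 4.46, 4.57, 4.44 and 4.36 in βUCP2Tg and 4.22, 3.99, 4.0 and 4.28 in WT islets, with no overlap. The difference was 0.34 ± 0.10 (SE), with an adjusted limma p of 0.114. A second *Ndufa3* probe also had separated groups, 3.05 to 3.18 against 2.66 to 2.95, and a difference of 0.31. The remaining, dimmer probe differed by -0.52, with an interval of -1.03 to -0.02, so the 3 probes do not give 1 direction for the gene. With the mean of the 3 probes *Ndufa3* differed by 0.041, and its groups then overlapped.

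The remaining 7 proximal membrane subunits differed by between -0.04 and 0.17 and none reached an unadjusted limma p of 0.05. *Ndufa10* was the highest of them at 0.17 ± 0.09 (SE). Its second probe differed by 0.12 (95% interval -0.06 to 0.31) with separated groups, 1.44 to 1.55 against 1.29 to 1.43, while its dimmest probe differed by -0.48 (95% interval -0.91 to -0.05). *Ndufs5* differed by 0.03 ± 0.12 (SE) and its dimmest probe, measured on 2 of 4 βUCP2Tg and 3 of 4 WT arrays, by -1.04 (95% interval -1.98 to -0.11). The dimmest *Ndufs3* probe, measured on 3 of 4 βUCP2Tg and 4 of 4 WT arrays, likewise differed by -0.60 (95% interval -1.02 to -0.19). The brighter one was level. For these 4 genes, *Ndufa3* among them, the dim probe and the bright probe had opposite signs, the dim one with an unadjusted limma p under 0.05. Further members also had probes of opposite signs, none of them with an unadjusted limma p under 0.05.

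The distal membrane arm was the most even of the larger groups. Its 10 subunits differed by between -0.06 and 0.13, 6 above and 4 below 0, and none had separated groups. *Ndufb8*, an accessory subunit that is lost when the complex fails to assemble and whose protein and mRNA the study also examined in islets, had signals of 5.11, 5.12, 4.86 and 4.98 in βUCP2Tg and of 5.22, 4.76, 4.78 and 5.17 in WT islets. The βUCP2Tg values lay inside the WT range. The difference was 0.03 ± 0.14 (SE; 95% interval -0.28 to 0.35), with an adjusted limma p of 0.896. Its second, dimmer probe differed by 0.33 with an unadjusted limma p of 0.0649. *Ndufb1*, a further distal subunit, was not analysed here.

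The 9 accessory subunits of the matrix arm differed by between -0.18 and 0.15, with a median of -0.0087. The lowest was *Ndufv3*, a small flavoprotein subunit, with signals of 5.71, 5.75, 5.59 and 5.12 in βUCP2Tg and 5.74, 5.66, 5.59 and 5.91 in WT islets. Its low mean came with the single low array, βUCP2Tg replicate 4, and the other 3 arrays lay within the WT range. *Ndufs4* and *Ndufs6*, accessory subunits near the NADH-oxidising end, differed by -0.05 and 0.15. The acyl carrier protein *Ndufab1*, which also serves mitochondrial fatty acid and lipoate synthesis, differed by 0.01 ± 0.10 (SE).

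*Ndufa4* and *Ndufa4l2* differed in opposite directions. *Ndufa4*, a subunit associated with cytochrome c oxidase, had signals of 3.71, 3.81, 3.71 and 3.43 in βUCP2Tg and 3.72, 3.12, 3.41 and 3.75 in WT islets, a difference of 0.17 ± 0.16 (SE) with overlapping groups. *Ndufa4l2* is a known target of the hypoxia-inducible factor HIF-1. Its signals were -1.78, -2.15, -1.94 and -1.0 in βUCP2Tg and -1.18, -1.30, -0.79 and -0.57 in WT islets. βUCP2Tg replicates 1 to 3 were below all WT arrays and replicate 4 was above WT replicates 1 and 2. The difference, -0.76 ± 0.27 (SE; 95% interval -1.37 to -0.14), was the largest of any member, with an unadjusted limma p of 0.0219 and an adjusted p of 0.141.

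Hypoxia response genes were given beside *Ndufa4l2*. Of 19, 17 were lower in βUCP2Tg islets at an unadjusted limma p under 0.05, 0 were called, and the median difference was -1.22. On the arrays their mean was lowest in βUCP2Tg replicates 1 to 3, where *Ndufa4l2* was also lowest. Their part in the *Ndufa4l2* result was not tested. Without βUCP2Tg replicate 4, *Ndufa4l2* differed by -1.0 ± 0.20 (SE) with an adjusted limma p of 0.0417, and was then called.

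Among the assembly factors, *Ndufaf3* and its partner *Ndufaf4*, which bind each other and help to build the ubiquinone-reducing module, differed by 0.36 ± 0.11 (SE) and 0.11 ± 0.15 (SE). *Ndufaf3* had signals of 0.89, 0.89, 0.88 and 0.71 in βUCP2Tg and of 0.66, 0.30, 0.38 and 0.60 in WT islets. The groups did not overlap, although βUCP2Tg replicate 4 lay closer to WT replicate 1 than to the other βUCP2Tg arrays. The adjusted limma p was 0.113.

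*Ndufaf6*, which acts early in assembly, was the assembly factor with separated groups in the other direction. Its signals were -0.49, -0.55, -0.57 and -0.50 in βUCP2Tg and -0.13, -0.35, -0.41 and -0.31 in WT islets. The difference was -0.23 ± 0.09 (SE), with an adjusted limma p of 0.170. Both other *Ndufaf6* probes were lower as well, by -0.24 and -0.55, and in all 3 probes every βUCP2Tg array was below every WT array. The probe with the larger difference had an unadjusted limma p of 0.000726 and an adjusted p of 0.065. Of the 18 members with several tested probes, *Ndufaf6* was the 1 in which each of them had separated groups in 1 direction.

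The other Ndufaf genes had overlapping groups. *Ndufaf1*, of the membrane arm assembly complex, *Ndufaf2*, a paralogue of *Ndufa12* that acts late in matrix arm assembly, and *Ndufaf8*, the partner of *Ndufaf5*, differed by 0.21, 0.22 and 0.26. *Ndufaf5*, which hydroxylates the NDUFS7 protein, differed by -0.10 and *Ndufaf7*, a methyltransferase needed for assembly, by 0.0093. The lowest adjusted limma p of these 5 was 0.270, for *Ndufaf8*.

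**Figure D2:**
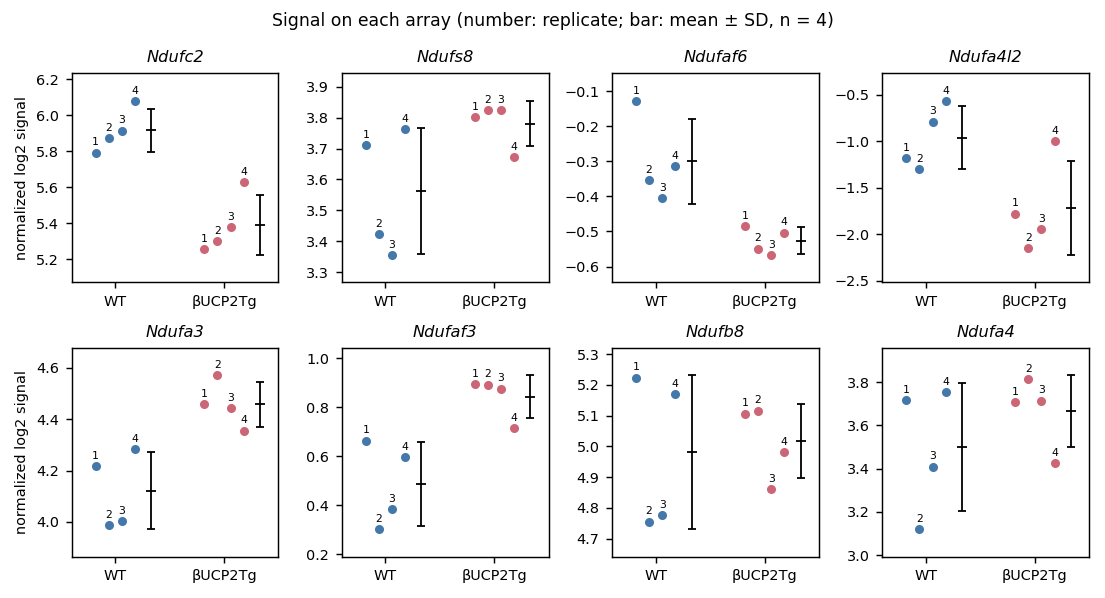
Normalized log2 signal (y axis, a separate scale in each panel) of 8 members on each of the 4 WT and 4 βUCP2Tg arrays, with replicate numbers beside the points and the mean ± SD to the right. *Ndufc2*, *Ndufaf6*, *Ndufa3* and *Ndufaf3* have separated groups, whereas *Ndufs8*, *Ndufa4l2*, *Ndufb8* and *Ndufa4* overlap.

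In all, 2 members had every βUCP2Tg array above every WT array and 2 had every array below. Over all probes these shares were 5.25% and 7.17%, so 2 and 2 of 45 members do not exceed the background. A probe of each of these 4 genes is shown, so that the transcript piece behind a difference can be seen. Each is 60 bases long, is given 5′ to 3′ in the sense of the transcript as listed in the deposited table, and reads through without a stop codon in at least 1 of its 3 frames. For *Ndufc2*, *Ndufaf6* and *Ndufaf3* it is the probe with the signals above, and for *Ndufa3* the second probe, which had separated groups too.
Ndufc2, A_51_P357459: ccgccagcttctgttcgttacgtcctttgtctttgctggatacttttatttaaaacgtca
Ndufaf6, A_52_P150525: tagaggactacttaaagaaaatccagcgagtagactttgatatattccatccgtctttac
Ndufa3, A_52_P69702: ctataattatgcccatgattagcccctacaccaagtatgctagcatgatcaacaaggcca
Ndufaf3, A_52_P110088: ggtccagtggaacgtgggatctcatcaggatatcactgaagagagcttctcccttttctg

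The subunits varied together from array to array within a genotype. In 31 of 37 subunits (83.8%) WT replicates 1 and 4 were both above WT replicates 2 and 3, and in 0 was the order turned round. Over all probes tested the first order was seen in 31.2% and the second in 24.9%. The mean over the 37 subunits was 4.33, 4.13, 4.12 and 4.40 in WT replicates 1 to 4. Among the βUCP2Tg arrays replicate 4 was the lowest in 26 of 37 subunits (70.3%, against 34.6% of all probes), and the subunit means were 4.29, 4.31, 4.23 and 4.18 in replicates 1 to 4. This order was looked for after the values were seen, and the subunits of 1 array are not independent of each other. The genotype means of these averages were 4.25 in each group, with SDs of 0.06 (βUCP2Tg, n = 4) and 0.14 (WT, n = 4).

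**Figure D3:**
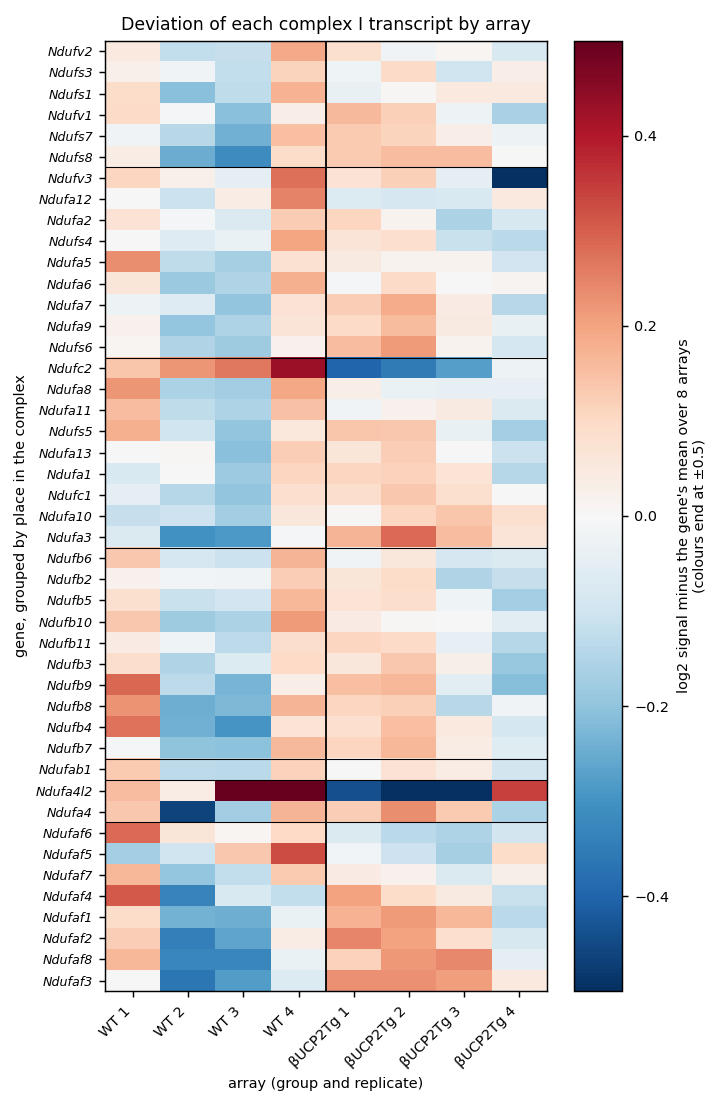
Signal of each member on each array minus the gene's own mean over the 8 arrays (colour, log2 scale, ending at ±0.5), with genes in rows by place in the complex and arrays in columns. WT replicates 1 and 4 are above WT replicates 2 and 3 in most rows, and *Ndufc2* and *Ndufaf6* are higher on all WT arrays, while *Ndufa4l2* has the strongest colours and is high on βUCP2Tg replicate 4.

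Other gene lists shared this order in part. Of 38 genes of complexes II to V, 23 (60.5%) had WT replicates 1 and 4 above replicates 2 and 3, and 28 (73.7%) were lowest in βUCP2Tg replicate 4. Of the 8 assembly factors 6 and 5 did so. The mean over the 10 islet endocrine markers was 5.96, 5.68, 5.74 and 5.79 in WT replicates 1 to 4. In βUCP2Tg replicates 1 to 4 it was 5.99, 5.89, 5.76 and 5.65. This mean was higher in WT replicates 1 and 4 than in 2 and 3, but the single markers differed. *Slc2a2*, *Pdx1* and *Nkx6-1* had that WT order, *Slc2a2* at 0.77, -0.95, -0.59 and -0.19. *Ins2*, *Iapp* and *Gcg* had the reverse order, *Ins2* at 9.29, 9.37, 9.36 and 9.29, and *Ins1*, *Sst*, *Ppy* and *Mafa* had neither. The mean was lowest in βUCP2Tg replicate 4, as were the single markers except *Gcg* and *Mafa*. The acinar mean was higher in WT replicates 2 and 3, at 3.0 and 3.40, than in WT replicates 1 and 4, at 2.02 and -0.84, and was highest among βUCP2Tg arrays in replicate 4, at 2.89. The acinar mean was thus higher on WT replicates 2 and 3 and βUCP2Tg replicate 4, where the subunits were lowest in each genotype. Among βUCP2Tg replicates 1 to 3 it was highest in replicate 2, at 0.29, where the subunit mean was highest too, at 4.31. The genotype means of the acinar averages were 0.28 (βUCP2Tg) and 1.89 (WT), while those of the subunits were 4.25 in each. The part of the acinar or endocrine markers in the order of the arrays was not tested. All 19 tested acinar genes had a lower mean in βUCP2Tg islets, and none was called or reached an unadjusted limma p of 0.05.

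**Figure D4:**
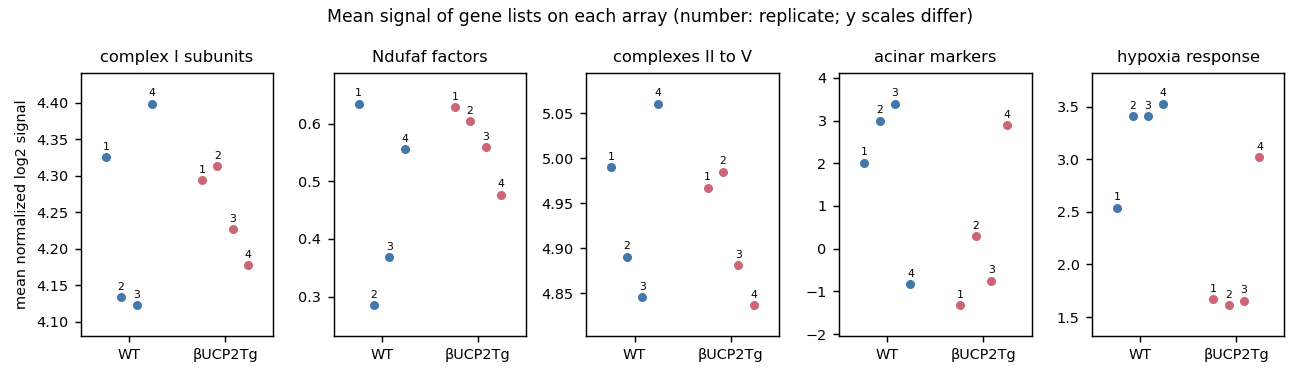
Mean normalized log2 signal (y axis, a separate scale in each panel) of 5 gene lists on each of the 4 WT and 4 βUCP2Tg arrays, with replicate numbers beside the points. The complex I subunits run from 4.12 to 4.40 with overlapping genotypes, while the acinar markers run from -1.33 to 3.40 and βUCP2Tg replicate 4 lies with the WT arrays in the hypoxia response.

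The rest of the complex I machinery was compared in the same fit. Of 11 further assembly factors, among them *Acad9*, *Ecsit*, *Timmdc1* and *Nubpl*, 0 were called by limma and 0 reached an unadjusted p of 0.05, with differences between -0.31 (*Acad9*) and 0.36 (*Nubpl*) and a median of 0.11. The 7 subunits encoded by mitochondrial DNA form the core of the membrane arm, and 0 of them were called. *ND1*, next to the ubiquinone site, was higher in βUCP2Tg islets at an unadjusted limma p of 0.00717 (adjusted p = 0.102), with signals of 3.73, 3.85, 3.88 and 4.04 against 3.53, 3.32, 3.5 and 3.64 in WT. These groups did not overlap and differed by 0.38 ± 0.11 (SE). The other 6 mitochondrial subunits differed by between -0.14 and 0.15, each with an unadjusted limma p over 0.24.

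The nuclear subunits of complexes II to V were also close to level. Of 38 genes 0 were called, all 38 of their 95% intervals lay within 1.5-fold, and the median difference was -0.0071. *Cox5a*, of cytochrome c oxidase, was the gene of that list with an unadjusted limma p under 0.05, at -0.27 with an adjusted limma p of 0.155. Groups did not overlap for *Cox5a*, *Atp5g1* and *Uqcrb*, 3 of 38, all lower in βUCP2Tg islets, where 7.17% of all probes were. None was separated in the other direction, where 5.25% of all probes were.

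The promoters of the members were described without use of the array signals. RefSeq promoter sequences (GRCm38.p6, from 250 bases before to 50 after the start site) matched 40 of the 45 members. The letters AAGATGGC, read on both strands, match the core of the motif bound by the factor YY1 and were found in 8 of 40 member promoters (20.0%) and in 2.88% of 27025 promoters. In all 8 they lay on the gene's strand, 11 to 39 bases into the transcript. The letters GCATGCGC, the core of the motif of NRF1, which is known to regulate respiratory chain genes, were found in 5 of 40 (12.5%) and in 2.8% of all promoters. The letters CCGGAAGT of the ETS family core were found in 1 of 40 (2.5%) and in 4.0%. The member promoters were richer in G and C, with a median of 59.3% against 52.7%. The 30 bases around the YY1-type letters, in capitals, are shown for 2 of the 8 members that hold them, *Ndufb8* as a subunit with overlapping groups and *Ndufa3* as one with separated groups.
Ndufb8, chr19:44555393-44555422, minus strand: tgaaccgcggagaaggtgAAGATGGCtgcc
Ndufa3, chr7:3617384-3617413, plus strand: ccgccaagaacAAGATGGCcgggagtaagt
The other 6 members with these letters were *Ndufa9*, *Ndufaf8*, *Ndufc1*, *Ndufs4*, *Ndufs6* and *Ndufs7*. With *Ndufb8* and *Ndufa3* among them, their differences ranged from -0.05 to 0.34. A match is a run of letters and does not show that a factor binds there.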

How the data were processed

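Gene expression was measured with Agilent SurePrint G3 Mouse GE 8 × 60K arrays, 1 for each of 8 islet samples. The authors deposited scanner output with the processed intensity of each spot (Feature Extraction 9.1 per the labels, 10.7.3.1 per the file headers) and a GeneSpring table of log2 values scaled to the 75th percentile. That table also holds the authors' fold changes and p-values, which were not used. RNA with an integrity number below the study's limit had been left out by the authors.

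Here, control and outlier spots were removed, the 75th percentile of an array was subtracted from its log2 intensities, and spots of a probe were averaged. A probe was measured on an array if at least 50% of its spots were well above background, and was tested if measured on at least 4 of 8 arrays, which left 35363 of 56605 probes. The 75th percentiles lay between 8.78 and 9.16 (log2), 33191 to 36320 probes were measured per array, and no spot was saturated. The number of arrays limits the precision. The deposited log2 columns equalled the scanner values to within 0.01 up to 1 constant per array.

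Groups were compared with limma 3.58.1 in R 4.3.3 (lmFit, eBayes) and Benjamini-Hochberg adjustment over all probes tested. The fit was tested on simulated data. Single members were also compared by an exact two-sided permutation test. Nothing in the labels said that replicate numbers pair samples, so no block was used in the main fit. The alternatives were another filter, scaling, background correction or test, the deposited values, the mean of a gene's probes, a block for replicate numbers, and fits without 1 or 2 of the arrays.

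The genes named were the nuclear core subunits, *Ndufb8*, *Ndufa4*, *Ndufa4l2*, the Ndufaf genes, members called or with separated groups, the 3 with the smallest p in each direction, and those with probes of opposite sign where 1 had an unadjusted p under 0.05. *Ndufv3*, *Ndufs4*, *Ndufs6*, *Ndufab1*, *ND1*, *Cox5a*, *Atp5g1* and *Uqcrb* were named after their values were seen. So were the single islet endocrine markers and the genes listed for the further assembly factors and the promoter letters. 1 gene that the rule takes in is not reported here. Members and lists were chosen with earlier results of these data known. Besides the acinar, islet endocrine and hypoxia lists, ductal markers ranged from -0.82 to -0.07, endothelial markers from 1.31 to 1.72 and macrophage markers from -0.33 to 0.69 in mean signal per array, with 1 of 7 macrophage genes called and 0 of the ductal and endothelial genes.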

Additional observations from a re-analysis of the deposited data

Results flagged for a closer look

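In 3 of 46 groups of 4 arrays examined (21 named genes and the means of the subunits and of the assembly factors, each genotype apart), 1 array lay far from the other 3, where chance alone gives about 2.3. All 3 were βUCP2Tg replicate 4. For *Ndufs8* its signal was 3.67 against 3.80 to 3.82 on the other βUCP2Tg arrays, a gap of 0.853 of the group's range. For *Ndufaf1* it was 0.32 against 0.62 to 0.67, a gap of 0.864. For *Ndufaf3* it was 0.71 against 0.88 to 0.89, a gap of 0.904. The same array had the highest acinar mean and the highest hypoxia response mean of the βUCP2Tg arrays. The part of either in these 3 values was not tested.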

How the results depend on the processing

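No assembly factor, mitochondrially encoded subunit, further assembly factor or complex II to V gene was called under any alternative. Among the subunits, 0 were called except 2 (*Ndufc2* and *Ndufa4l2*) without βUCP2Tg replicate 4 and when WT replicate 1 was left out too, a setting chosen after seeing the data, and 1 (*Ndufa4l2*) by the methods' t-test without adjustment. Members higher at an unadjusted p under 0.05 numbered 6 after quantile normalization, 7 after normexp correction, 1 with the mean of a gene's probes and 6 with both arrays left out. Those with separated, higher groups numbered 4, 1 and 7 under quantile normalization, the mean of probes and both arrays left out, where the assembly factor median was 0.32. With 1 array left out, subunits called ranged from 0 to 2, members at an unadjusted p under 0.05 from 2 to 4 higher and from 1 to 3 lower (4 higher and 1 lower without WT replicate 4, 1 lower without βUCP2Tg replicate 2 or 3), and separated higher groups from 2 to 4 (4 without βUCP2Tg replicate 4 or WT replicate 4). Signs turned only for uncalled differences: *Ndufv2* became 0.085 (quantile), 0.033 (median scaling), 0.069 (normexp), 0.016 (deposited values) and 0.041 (both arrays left out), *Ndufs1* -0.013 and *Ndufaf7* -0.0047 (normexp), and *Ndufs1* -0.10, *Ndufs3* -0.30, *Ndufa10* -0.064 and *Ndufs5* -0.31 with the mean of probes. That mean also moved, with no change of sign, *Ndufa3* to 0.041, *Ndufv1* to 0.0044, *Ndufv2* to -0.20, *Ndufb8* to 0.18, *Ndufaf5* to -0.011, *Ndufaf6* to -0.34 and *Ndufaf7* to 0.047, and it takes in the *Ndufa13* probe described as another gene. With 1 array left out the ranges that crossed 0 were *Ndufv1* -0.016 to 0.11, *Ndufv2* -0.042 to 0.062, *Ndufs1* -0.029 to 0.098, *Ndufs3* -0.038 to 0.039, *Ndufb8* -0.040 to 0.12, *Ndufs5* -0.026 to 0.099 and *Ndufaf7* -0.053 to 0.066. Others that moved by over 1.5 times without turning were *Ndufs7* (0.065 to 0.19), *Ndufa4* (0.039 without WT replicate 2 to 0.25), *Ndufaf2* (0.15 to 0.30), *Ndufaf4* (0.021 without WT replicate 2 to 0.24) and *Ndufaf5* (-0.17 to -0.0028, the latter without WT replicate 4). Quantile normalization moved, with no change of sign, *Ndufv1* to 0.13, *Ndufs1* to 0.10, *Ndufs3* to 0.075, *Ndufs7* to 0.21, *Ndufb8* to 0.12, *Ndufs5* to 0.13 and *Ndufaf7* to 0.020. The cause of these shifts was not tested. With the replicate number as a block, 0 subunits and 0 assembly factors were called and 14 of all probes against 145, but same-numbered arrays correlated at 0.44, -0.05, -0.0086 and -0.24 (deviations from group means) and 1 of 4 correlated best with its own number, so the pairing is not borne out.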
